A study of Mus musculus with 7 samples.

Results

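The miRNA content of prepuberal mouse testes kept for 12 days in ex vivo culture was set against that of the adult mouse testis, in order to see which miRNAs of the cultured tissue still lay below or above the adult level and which matched it. Of the 7 small RNA libraries of the series, the comparison takes the 4 cultured libraries and the adult one. It covers all 331 mature miRNAs that the deposited table lists. All mice were of the CD1 strain, which is outbred, and the tissue was whole testis. T6-12K and T6-12A were testes of 6.5 dpp mice (dpp, days post-partum) cultured with KSR or AlbuMAX I, respectively, and T10-12K and T10-12A were the same for testes of 10.5 dpp mice. KSR is a serum replacement, and AlbuMAX I a lipid-rich bovine serum albumin used in its place. The explants, without their tunica albuginea, were laid on agarose at the gas-liquid interface. TAD was testis of an adult mouse of 2 months, never cultured. The characteristics of the samples give the starting ages as 6 and 10 dpp. The libraries T6 and T10, uncultured testes of 6.5 and 10.5 dpp mice, were used only to give the level from which each culture had started. Every condition had a single library, and nothing in the labels says how many animals or explants went into it. The 4 cultures were 4 conditions and not replicates. No difference was therefore tested, and every interval given covers counting error only.

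miRNAs are small RNAs that guide the silencing of messenger RNAs, which they recognise mainly through their seed, the bases 2 to 8 of the mature strand. In the testis their set changes as the first wave of spermatogenesis advances from spermatogonia through meiotic spermatocytes to spermatids. The miR-34 and miR-449 family accumulates in meiotic and postmeiotic germ cells and is needed for normal spermatogenesis, clusters of fast-evolving miRNAs on the X chromosome are transcribed in testis, and miRNAs such as miR-143-3p belong to smooth muscle and other mesenchymal cells. In a library of whole testis, fewer cells of a type and less RNA per cell cannot be told apart.

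The deposited values were reads divided by a single factor per library. After this factor was undone, the reads on listed miRNAs ranged from 7075528 to 10793767 in the 4 cultures and came to only 1628770 in TAD. Levels are given as CPM, a scale on which the reads on listed miRNAs of each library add up to 1000000. The lowest listed level, 5 reads, was worth between 0.463 and 0.707 CPM in the cultures and 3.07 CPM in TAD, where 64 miRNAs were listed at 0 against 12 to 21 in the cultures. A value at 0 was taken to lie anywhere up to that lowest level. As a sign of gonadal tissue in the 5 libraries, the gonadal miRNA miR-202-5p was read. It stood at 86.2, 120, 136 and 139 CPM in T6-12K, T6-12A, T10-12K and T10-12A and at 128 CPM in TAD. Except where stated, the values of the cultures are given in that order below. The other arm, miR-202-3p, lay farther from the adult, with a median log2 ratio of culture to TAD of -1.25. The third miRNA of this gonad set, miR-375-3p, is given below.

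A miRNA was called lower than in the adult when its CPM in each of the 4 cultures was at most that of TAD divided by 2, higher when each was at least 2 times that of TAD, and within 2-fold when all 4 lay between these limits. By this rule 75 of the 331 miRNAs (22.7%) were lower, 25 (7.55%) were higher, 62 (18.7%) were within 2-fold, and the remaining 169 (51.1%) were not called. Of the latter, 54 lay below TAD in all 4 cultures and 34 above it without meeting a limit in each, 25 did not lie on one side, and 56 were listed at 0 in TAD. Among the 116 miRNAs that averaged 100 CPM or more over the 5 libraries, 27 (23.3%) were lower, 5 (4.31%) higher and 37 (31.9%) within 2-fold. The lower miRNAs held 12.2% of the reads of TAD but 1.67%, 2.58%, 2.90% and 2.95% of those of the cultures. The higher ones held 0.913% of the reads of TAD and between 2.15% and 2.81% of those of the cultures.

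These counts depend on how the libraries are scaled, because miR-10b-5p and miR-143-3p made up most of every library and all other miRNAs together only 24.3%, 32.3%, 31.1% and 31.8% of the cultures against 43.0% of TAD. Over the 267 miRNAs above 0 in TAD, the median log2 ratio of culture to adult was -0.58 in CPM. It was shifted upwards by 0.46 when CPM was taken without those 2 miRNAs, by 0.36 with median-of-ratios factors, by 0.61 with TMM (trimmed mean of M-values) library sizes and by 0.60 in the values as deposited. In that order of scalings, 52, 58, 47 and 47 miRNAs were lower, 53, 52, 58 and 56 were higher, and 55, 59, 55 and 47 were within 2-fold. Under the other scalings the lower miRNAs thus made up 14.2% to 17.5% of all 331, the higher ones 15.7% to 17.5%, and those within 2-fold 14.2% to 17.8%. Among all miRNAs called lower or higher, the share of the lower ones was 75% in CPM and 49.5%, 52.7%, 44.8% and 45.6% in the other scalings. In all 5 scalings, 44 miRNAs were lower, 25 were higher and 17 were within 2-fold. All 25 miRNAs that were higher in CPM were also higher in the other 4 scalings. This was fixed in advance, since each of these scalings raised every culture against TAD. For the 29 named miRNAs that were lower or higher in CPM, the direction was the same in all 5, which only the lower ones could have failed.

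**Figure D1:**
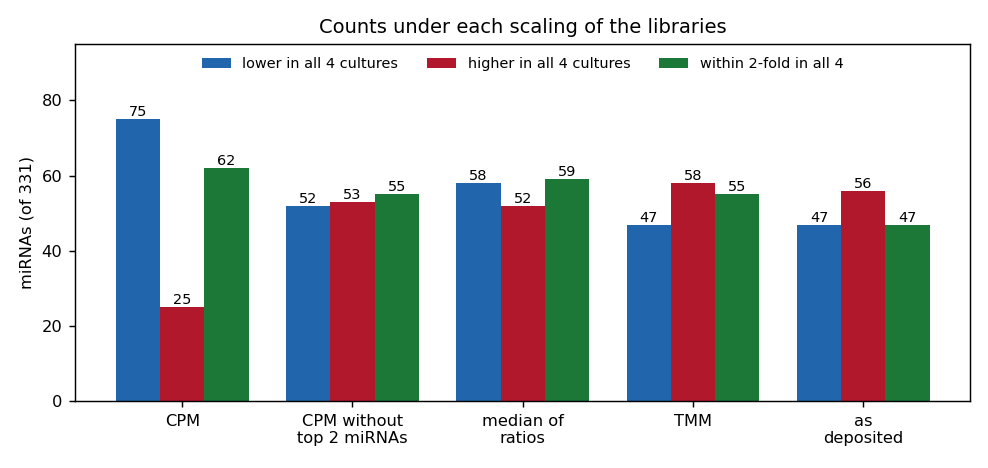
Bars give the number of miRNAs, of 331, that were lower (blue), higher (red) or within 2-fold (green) in all 4 cultures against TAD, under each of 5 scalings of the libraries. In CPM 75 were lower and 25 higher, while under the other scalings the lower ones numbered 47 to 58 and the higher ones 52 to 58.

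T6-12K differed most from the adult in the size of its ratios. Over the 116 miRNAs averaging 100 CPM or more, the median size of the log2 ratio to TAD, whatever its sign, was 1.17 in T6-12K and 0.97, 0.94 and 0.87 in T6-12A, T10-12K and T10-12A, and it was also largest in T6-12K under the other 4 scalings, at 1.15 to 1.24. The median of the signed ratio set T6-12K apart in CPM only, at -0.60 against -0.15, -0.26 and -0.33. Under the other scalings it was 0.22 to 0.43 in T6-12K, inside the range of the other cultures in 3 scalings and above it, at 0.26 against 0.06 to 0.13, with median-of-ratios factors. T6-12K was the farthest culture from the adult for 62 of the 75 lower miRNAs in CPM and for 43 to 50 of them under the other scalings. In CPM, T10-12K was the nearest for 29, T6-12A for 23 and T10-12A for 21. Leaving out T6-12K gave 77 lower, 30 higher and 83 within 2-fold, and leaving out T10-12A gave 88, 33 and 67. T6-12K also held the most reads of miR-486a-5p and miR-486b-5p, which made up nearly all of the 5136 CPM of its 7 listed erythroid markers, while 3 of the 7 were at 0 in that library. The erythroid sum was 889 to 1525 CPM in the other cultures and 2224 CPM in TAD, and its part in the results was not tested.

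**Figure D2:**
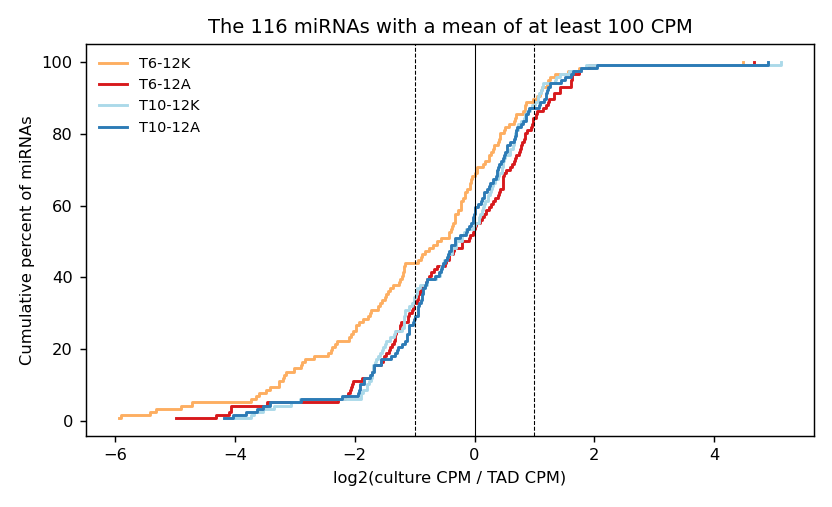
Cumulative percent of the 116 miRNAs averaging 100 CPM or more (vertical axis) against their log2 ratio of culture to TAD in CPM (horizontal axis), with 1 line per culture, a solid line at equality and dashed lines at 2-fold. The line of T6-12K lies farthest to the left, with a median of -0.60, and those of the other 3 cultures run close together, with medians from -0.33 to -0.15, an order of medians that holds in CPM only.

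Of the 331 miRNAs, 288 were matched by name to a mature sequence of RefSeq (GRCm38.p6). The sequences below are those of miRNAs that mark the results, with the seed in capitals, and are grouped by shared seed because members of 1 seed family can differ in their relation to the adult. The first group holds the seed shared by miR-34 and miR-449, in which miR-34b-5p, miR-449a-5p and miR-449c-5p were lower and miR-34a-5p was not called.
miR-34b-5p: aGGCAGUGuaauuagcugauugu
miR-449a-5p: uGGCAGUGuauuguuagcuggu
miR-449c-5p: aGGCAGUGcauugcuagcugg
miR-34a-5p: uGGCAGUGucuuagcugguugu

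In the next 2 groups a miRNA that was higher in the cultures shares its seed with miRNAs that were within 2-fold of the adult or not called. These are miR-99b-5p (higher), miR-99a-5p (not called) and miR-100-5p (within), and then miR-351-5p (higher), miR-125a-5p (not called) and miR-125b-5p (within).
miR-99b-5p: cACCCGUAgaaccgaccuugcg
miR-99a-5p: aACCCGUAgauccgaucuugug
miR-100-5p: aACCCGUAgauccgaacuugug
miR-351-5p: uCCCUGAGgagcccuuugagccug
miR-125a-5p: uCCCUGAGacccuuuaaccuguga
miR-125b-5p: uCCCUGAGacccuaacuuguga

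The seed of miR-16-5p joins 3 lower miRNAs, miR-16-5p, miR-15b-5p and miR-195a-5p, to miR-322-5p, which was not lower in any of the 4 cultures. miR-15a-5p and miR-497a-5p, not called, have the same seed.
miR-16-5p: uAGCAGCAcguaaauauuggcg
miR-15b-5p: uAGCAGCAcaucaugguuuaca
miR-195a-5p: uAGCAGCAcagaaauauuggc
miR-322-5p: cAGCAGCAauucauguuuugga

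The remaining sequences are those of single miRNAs that carry the results, namely the lower miR-7210-5p, miR-881-3p, miR-192-5p and miR-423-5p, the higher miR-210-3p and miR-127-3p, and let-7f-5p and miR-10b-5p, which were within 2-fold.
miR-7210-5p: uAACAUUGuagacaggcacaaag
miR-881-3p: aACUGUGUcuuuucugaauaga
miR-192-5p: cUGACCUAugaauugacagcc
miR-423-5p: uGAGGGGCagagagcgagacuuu
miR-210-3p: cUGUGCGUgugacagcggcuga
miR-127-3p: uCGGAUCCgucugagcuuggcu
let-7f-5p: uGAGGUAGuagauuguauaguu
miR-10b-5p: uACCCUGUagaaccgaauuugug

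Among the miRNAs averaging 100 CPM or more, the 3 largest deficits of the cultures were those of miR-34 and miR-449 family members. miR-34c-5p, the most abundant member, stood at 514, 1193, 1588 and 1445 CPM in the cultures and at 20424 CPM in TAD, so that the nearest culture, T10-12K, was 12.9-fold below the adult (log2 ratio -3.68, 95% interval of counting error from -3.72 to -3.65). All 4 cultures nevertheless lay above their starting tissue, since miR-34c-5p had 59.9 CPM in T6 and 141.7 CPM in T10. miR-34b-5p, encoded at chr9:51103562-51103645 of GRCm38 on the strand opposite to an intron of Btg4, reached 33.0, 63.7, 121 and 112 CPM against 2026 CPM in TAD, from 3.82 and 10.4 CPM in T6 and T10. miR-449a-5p, encoded at chr13:113037534-113037624 in an intron of Cdc20b, reached 46.3, 166, 208.5 and 224 CPM against 2771 CPM. In these 3 miRNAs T6-12K was the lowest culture, and the lowest and the highest culture differed less from each other than the highest did from the adult.

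Of the 7 family members in the table, 6 were lower than in the adult in all 4 cultures, against 22.7% of all miRNAs. None was higher or within 2-fold. The study had already named miR-34c-5p and miR-449a-5p as rising with differentiation in these same libraries, so the count is no independent support. The median over the members of the log2 ratio to the adult was -3.96, beside -0.58 over all miRNAs above 0 in TAD, and the 6 were lower in all 5 scalings. Summed over the family, the cultures held 646, 1551, 2048 and 1928 CPM and TAD 25937 CPM. The exception was miR-34a-5p, with 31.1, 51.4, 75.9 and 85.7 CPM in the cultures and 138 CPM in TAD, so that only the 6.5 dpp cultures were more than 2-fold below the adult. miR-449c-5p, from the same intron of Cdc20b as miR-449a-5p, had the smallest gap of the 6, with 17.9, 63.3, 32.1 and 49.1 CPM against 244 CPM.

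A second set that was far below the adult in all 4 cultures was the miR-7200 series, small RNAs of which little is known. All 5 listed members were lower, in all 5 scalings, against 22.7% of all miRNAs in CPM and 14.2% to 17.5% in the others. Among them, miR-7217-3p was at 0 in T6, T10, T6-12K and T10-12K. It had at most 0.926 CPM in any culture, against 14.7 CPM in TAD. With a minimum of reads per miRNA applied, it was probably listed only through TAD, so its lower call carries no weight. miR-7210-5p, encoded at chr14:24088877-24088930 outside annotated genes, was almost undetected before culture (0.374 CPM in T6 and 1.72 CPM in T10), reached 343, 813, 1072 and 845 CPM in the cultures, and stood at 8980 CPM in TAD, 8.38-fold above T10-12K. miR-7229-5p, listed at 0 in both T6 and T10, had 21.4, 38.4, 63.2 and 55.7 CPM in the cultures and 640 CPM in TAD. The cultures therefore lay between the starting and the adult levels for both of these small RNAs. In CPM the 10.5 dpp cultures were closer to the adult level than the 6.5 dpp cultures. For miR-7210-5p this order depends on the scaling, since T6-12A and T10-12A were nearly level, at 813 and 845 CPM. The other 3 members did not exceed 5.21 CPM in any culture and had between 14.7 and 51.6 CPM in TAD. All 3 were at 0 in T6 and T10, so miR-7214-5p and miR-7230-5p may likewise have been listed only through TAD. The count of 5 is therefore not comparable with the share of all miRNAs. Only miR-7210-5p and miR-7229-5p were well above 5.21 CPM in every culture.

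miR-375-3p, best known from endocrine cells, was, beside miR-34b-5p, miR-34c-5p, miR-449a-5p and miR-7229-5p, the last of 5 miRNAs averaging 100 CPM or more with over a 10-fold deficit in CPM. Under the other scalings only 1 of these, miR-34b-5p, kept a 10-fold deficit, with log2 ratios of -3.70 to -3.48 in the nearest culture, against -3.32 to -3.10 for miR-34c-5p. miR-375-3p stood at 210, 455, 778 and 552 CPM in the cultures, above the 99.8 and 86.7 CPM of T6 and T10. In TAD it had 9015 CPM, which was 11.6-fold above the nearest culture, T10-12K, in CPM. Its log2 ratios in the nearest culture were -3.17 to -2.95 in the other scalings. Among the lower miRNAs of lower abundance, miR-184-3p had 5.23, 11.5, 21.1 and 25.2 CPM against 314 CPM, and miR-468-5p, listed at 0 in T6 and T10, had 4.93, 7.87, 17.2 and 11.2 CPM against 165 CPM. These values again placed T6-12K farthest from the adult.

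**Figure D3:**
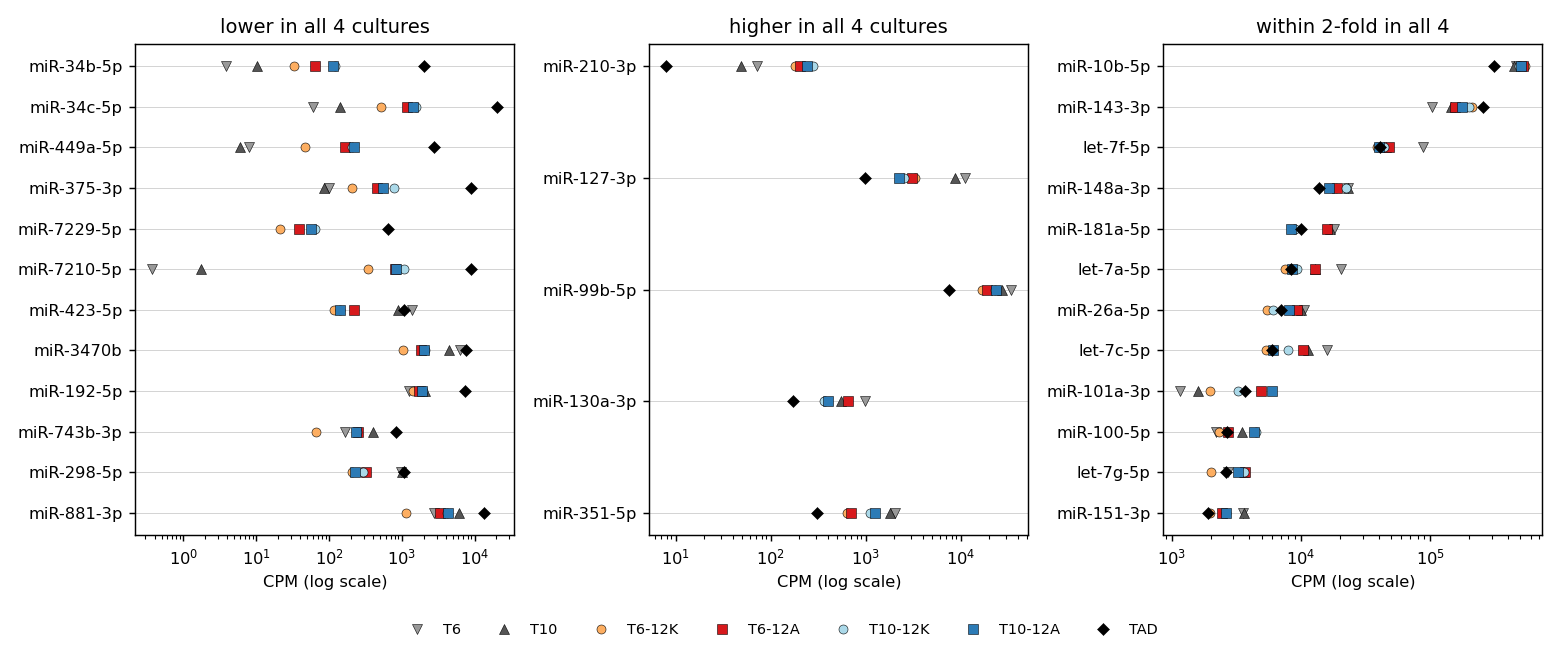
Levels (CPM, log scale) of the 12 miRNAs with the largest deficit, the 5 that were higher and the 12 most abundant within 2-fold, all averaging 100 CPM or more, with 1 symbol per library; a level of 0 is not drawn. In the left panel the adult diamond lies to the right of all 4 cultures, in the middle panel it lies to their left, and in the right panel it lies among or close to them.

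The X-linked testis clusters formed the largest lower group. Of their 26 listed members, 18 were lower in all 4 cultures in CPM and none was higher or within 2-fold, with a median log2 ratio of -1.82. The share of all miRNAs that were lower in CPM was 22.7%. Under the other scalings 9 to 13 members were lower, beside 14.2% to 17.5% of all miRNAs, and the median stayed between -1.45 and -1.29. Summed over the members, the cultures held 18912, 50637, 58999 and 68401 CPM and TAD 137357 CPM. In contrast to the miR-34 and miR-449 family, these miRNAs were already abundant before culture, with 52845 CPM in T6 and 95943 CPM in T10, and the T10-derived cultures lay below T10. The median log2 ratio was -3.42 in T6-12K but -1.76, -1.70 and -1.72 in the other 3.

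Within these clusters, miR-881-3p, encoded at chrX:66801944-66802021, had 1132, 3320, 4202 and 4268 CPM against 13632 CPM in TAD. miR-743b-3p, at chrX:66777256-66777332, had 66.1, 251, 239 and 232 CPM against 831 CPM, and miR-465c-5p had 304, 988, 1267 and 1115 CPM against 4020 CPM. The last of these is encoded by near-identical copies, and the 3p arms of miR-465b and miR-465c had the same value in every library, so that their reads could not be separated. The 3p arm of miR-465a has the same mature sequence. These arms are thus 1 sequence counted as separate lower members. The most abundant member, miR-470-5p, fell just outside the limit, with 8705, 23165, 28645 and 32497 CPM against 64587 CPM and a log2 ratio of -0.99 in T10-12A. miR-741-3p, at -0.94, was the next outside it. Just inside it lay miR-30e-5p at -1.003 and miR-3470a at -1.09.

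By chromosome and in CPM, 18 of the 49 matched miRNAs encoded on the X chromosome were lower (36.7%), as were 50 of the 239 encoded elsewhere (20.9%). These 18 were the lower members of the X-linked testis clusters already given, so they add no further result. The X chromosome also encoded 7 higher miRNAs (14.3%, against 7.53% elsewhere) and only 4 within 2-fold (8.16%, against 19.2%). All 43 matched miRNAs of chromosome 12 lay outside the lower class, with 7 of them higher. Most belong to the imprinted Dlk1-Dio3 cluster, of whose 37 listed members 24 were at 0 in TAD and could not be called lower. Of the 69 hairpins with both arms listed, 21 had at least 1 arm in the lower class and 10 had both, and no hairpin combined a lower with a higher arm.

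Other lower miRNAs had been as high in the starting tissue as in the adult. miR-423-5p, encoded in an intron of Nsrp1, had 1360 and 892 CPM in T6 and T10, 116, 217, 140 and 141.6 CPM in the cultures, and 1057 CPM in TAD. Its 3p arm behaved otherwise, with 94.9, 177, 169 and 170 CPM in the cultures and 128 CPM in TAD, within 2-fold. miR-298-5p had 970 and 995 CPM in T6 and T10 and 1060 CPM in TAD, against 204, 327, 292 and 228 CPM in the cultures. miR-298-5p and, among the X-linked miRNAs, miR-743b-3p were lower in 4 of the 5 scalings. For miR-423-5p and miR-298-5p the cultures thus lay below the prepuberal and the adult testis alike.

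miR-3470b showed the same order, with 6238 and 4392 CPM in T6 and T10, 1045, 1846, 2067 and 2004 CPM in the cultures and 7730 CPM in TAD. miR-192-5p, a miRNA well known from gut and kidney epithelia, was nearly level among the cultures, at 1448, 1733, 1962 and 1912 CPM, near its starting values of 1240 and 2084 CPM, and stood at 7298 CPM in TAD. In the whole lower class, the cultures were all below both T6 and T10 for 42 of the 75 miRNAs and all above both for 14. The same orders were found for 191 (57.7%) and 37 (11.2%) of all 331 miRNAs. In CPM without miR-10b-5p and miR-143-3p the cultures were below both for 26 of the 75 and for 118 (35.6%) of all, and above both for 17 and for 58 (17.5%). Among the lower miRNAs averaging 100 CPM or more, all 4 cultures lay above both starting libraries for 7 of 27, against 17 of 116 (14.7%) in all. In CPM without miR-10b-5p and miR-143-3p this held for 8 of 27 (29.6%), close to the 28 of 116 (24.1%) in all.

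Some lower calls depended on the scaling, and part of them belonged to CPM alone. Of the 11 members of the miR-30 family, which is broadly expressed, 5 were lower in CPM but 0 to 2 under the other scalings, while the median log2 ratio was -1.46 in CPM and between -0.84 and -0.72 otherwise. miR-30e-5p, lower in CPM alone, had 421, 692, 605 and 700 CPM against 1402 CPM in TAD. Of the 13 listed members of the miR-17-92 and related clusters, which are tied to cell proliferation, 5 were lower in CPM and 3 to 5 under the other scalings, with medians of -1.28 and of -0.86 to -0.70. For both groups, the share of all miRNAs that were lower was 22.7% in CPM and 14.2% to 17.5% otherwise. In the seed family of miR-16-5p, that miRNA had 484, 1089, 816 and 760 CPM against 2543 CPM in TAD, whereas miR-322-5p had 228, 505, 359 and 421 CPM against 188 CPM.

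**Figure D4:**
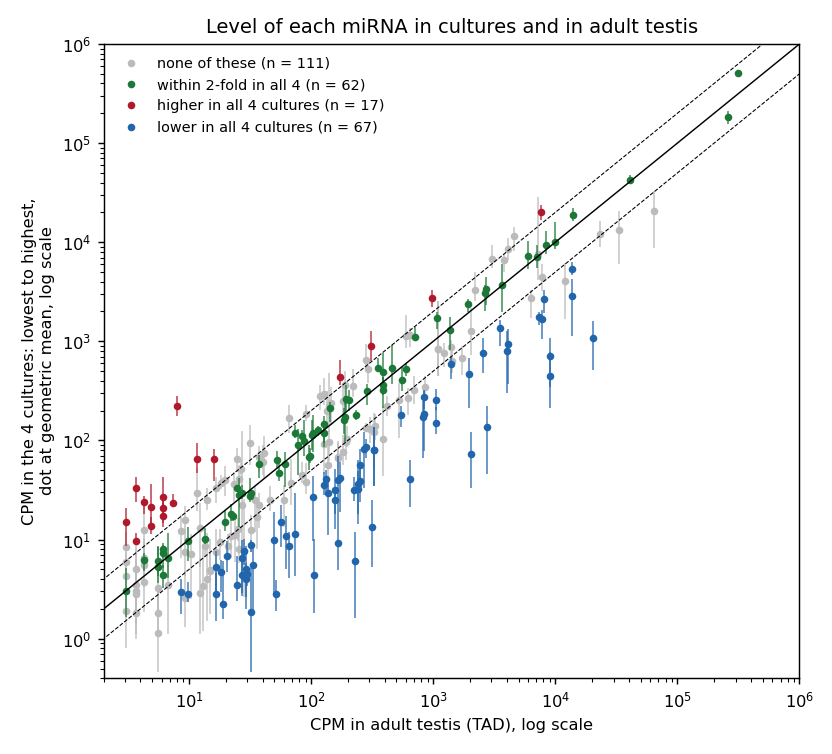
Level of the 257 miRNAs above 0 in all 5 libraries, with CPM in TAD on the horizontal axis and CPM in the cultures on the vertical axis (both log scales), where the vertical bars run from the lowest to the highest culture, the dots are geometric means, the solid line is equality and the dashed lines are 2-fold limits. Lower miRNAs (blue) extend below the line over the whole range of adult levels, whereas the higher ones (red) mostly have low adult levels.

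Among the 25 miRNAs that were higher in all 4 cultures, only 5 averaged 100 CPM or more, and 21 had at most 100 reads in TAD. miR-210-3p, a miRNA induced by hypoxia and encoded at chr7:141221384-141221493, showed the largest excess among those above 0 in TAD. It had 178, 202, 278 and 239 CPM in the cultures and 7.98 CPM in TAD, where it rested on 13 reads, so that the nearest culture, T6-12K, was 22.3-fold above the adult (log2 ratio 4.48, 95% interval of counting error from 3.69 to 5.27). The starting tissue had 71.5 and 48.1 CPM, below all 4 cultures. Its other arm, miR-210-5p, was also higher, with 14.8, 25.1, 22.0 and 22.4 CPM against 6.14 CPM from 10 reads.

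The other 4 of these 5 were near the limit of 2-fold in CPM and did not exceed their level in both starting libraries. Under the other scalings their log2 ratios in the nearest culture rose to between 1.43 and 2.02. miR-99b-5p, encoded in an intron of Spaca6 at chr17:17830194-17830215, had 16596, 18916, 22703 and 23567 CPM in the cultures, 7579 CPM in TAD and 33854 and 27437 CPM in T6 and T10. miR-127-3p, encoded on chromosome 12 opposite to an exon of the imprinted gene Rtl1, had 3280, 3042, 2512 and 2235 CPM against 982 CPM, from 10974 and 8673 CPM. miR-351-5p had 631, 702, 1114 and 1261 CPM against 307 CPM, and miR-130a-3p had 370, 645, 360 and 404 CPM against 173 CPM. In CPM the last 2 were the calls nearest to the limit, with log2 ratios of 1.04 and 1.06 in the nearest culture, while miR-411-5p (0.91) and miR-541-5p (0.86) lay just outside it. For 19 of the 25 higher miRNAs all 4 cultures were below both T6 and T10, and for 5 they were above both. The same orders held for 57.7% and 11.2% of all 331 miRNAs. In CPM without miR-10b-5p and miR-143-3p they held for 13 and 5 of the 25, and for 35.6% and 17.5% of all.

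The imprinted Dlk1-Dio3 cluster on chromosome 12 gave 7 of the 25 higher miRNAs, 7 of 37 listed members against 7.55% of all miRNAs. None was lower, 1 was within 2-fold, and 24 were listed at 0 in TAD and could therefore be called higher or not at all. Over the 13 members above 0 in TAD the median log2 ratio was 1.33, against -0.58 over all miRNAs, and under the other scalings 12 members were higher, beside 15.7% to 17.5% of all miRNAs. Summed over the cluster, the cultures held 5052, 5235, 3924 and 3447 CPM, between 18697 and 14556 CPM in T6 and T10 and 1593 CPM in TAD. miR-300-3p had 42.0, 43.0, 28.3 and 23.9 CPM in the cultures against 3.68 CPM in TAD, which was 6 reads. miR-379-5p was listed at 0 in TAD, so that its 22.7, 30.4, 25.3 and 22.7 CPM in the cultures were at least 7.40-fold higher than the adult, counted against the 5 reads of the lowest listed level.

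The X-linked cluster that runs from miR-322 to miR-450 and includes miR-503, miR-351 and miR-542 gave 4 higher miRNAs of 8 listed members, against 7.55% of all miRNAs, and 5 under the other scalings, against 15.7% to 17.5%. Besides miR-351-5p these were miR-542-3p, with 39.1, 81.3, 78.6 and 68.7 CPM against 16.0 CPM, and miR-450b-5p and miR-450a-5p, both listed at 0 in TAD and at least 4.03-fold and 2.33-fold higher in the nearest culture. Of the 8 listed members, 4 were at 0 in TAD and could therefore be called higher or not at all. Of all miRNAs only 19.3% were at 0 in TAD, so the shares over all miRNAs are no like comparison. Summed over its members, the cluster held 973, 1408, 1648 and 1850 CPM in the cultures and 564 CPM in TAD. It held 3266 and 2799 CPM in T6 and T10. The cultures thus lay between the starting and the adult levels.

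Among the 7 listed miRNAs of the set fixed as associated with culture, namely miR-210, miR-21a, miR-146, miR-132 and miR-155, 3 were higher, both arms of miR-210 and miR-21a-3p. Of all miRNAs 7.55% were higher. The study had already named miR-210-3p and miR-21a-5p as highest in these same cultures, so the count is no independent support. miR-21a-5p, a miRNA widely induced by stress and inflammation, had 5522, 5445, 7751 and 9291 CPM against 3042 CPM in TAD, above the 2018 and 2359 CPM of T6 and T10. It was higher than the adult in all 4 cultures in the other 4 scalings but less than 2-fold higher in both 6.5 dpp cultures in CPM. miR-146b-5p had 2571, 2695, 3533 and 4977 CPM against 2181 CPM. In all, 27 miRNAs were higher in the other 4 scalings and not in CPM, 14 of them averaging 100 CPM or more, among them miR-10b-5p, let-7i-5p, miR-125a-5p and miR-27b-3p.

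The miRNAs within 2-fold of the adult included the most abundant ones. miR-10b-5p, encoded at chr2:74726070-74726137 in introns of Hoxd3 and Hoxd4, had 544136, 520447, 489121 and 505565 CPM in the cultures and 311633 CPM in TAD. All 4 cultures were above the adult, and under the other scalings this miRNA was higher. miR-143-3p had 212659, 156675, 199649 and 176083 CPM against 258115 CPM, from 103729 and 145909 CPM in T6 and T10, and was within 2-fold in all 5 scalings. The 62 miRNAs of this class held 85.8%, 81.9%, 81.3% and 79.6% of the reads of the cultures and 67.6% of those of TAD. Without these 2 miRNAs the remaining 60 held 10.2%, 14.2%, 12.4% and 11.5%, against 10.7% in TAD.

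let-7f-5p, the third most abundant of this class, was within 2-fold in all 5 scalings, with 38840, 48118, 44337 and 40096 CPM against 40872 CPM, while T6 had 88240 CPM and T10 45639 CPM. Of the 11 listed members of the let-7 and miR-98 family, which restrains proliferation and accumulates with differentiation, 6 were within 2-fold in CPM and none was lower or higher, and under the other scalings 2 or 3 were higher. Of all miRNAs, 18.7% were within 2-fold in CPM, and 15.7% to 17.5% were higher under the other scalings. The median log2 ratio of the family was 0.20 in CPM and between 0.73 and 0.91 otherwise. let-7a-5p had 7567, 12966, 9276 and 8521 CPM against 8442 CPM, and let-7i-5p, with the same seed, 8209, 14143, 12304 and 13023 CPM against 4586 CPM. let-7e-5p went the other way, with 789, 959, 784 and 557 CPM against 1221 CPM in TAD, after 6948 and 3129 CPM in T6 and T10.

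Further abundant miRNAs that were within 2-fold in CPM were miR-148a-3p, with 18590, 19184, 22145 and 16437 CPM against 13868 CPM, miR-181a-5p, with 8795, 15813, 9077 and 8453 CPM against 10032 CPM, and miR-100-5p, with 2320, 2750, 4467 and 4339 CPM against 2699 CPM. miR-101a-3p varied most among the 12 most abundant, at 1995, 4929, 3244 and 5985 CPM around the 3680 CPM of TAD, with 1170 and 1599 CPM in T6 and T10. Of these 4 none was within 2-fold in all 5 scalings. The 9 averaging 100 CPM or more that were so were miR-143-3p, let-7f-5p, miR-103-3p, miR-151-5p, miR-26b-5p, miR-378a-3p, miR-202-5p, miR-145a-3p and miR-101b-3p. For example, miR-378a-3p had 331, 285, 432 and 432 CPM against 386 CPM.

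**Figure D5:**
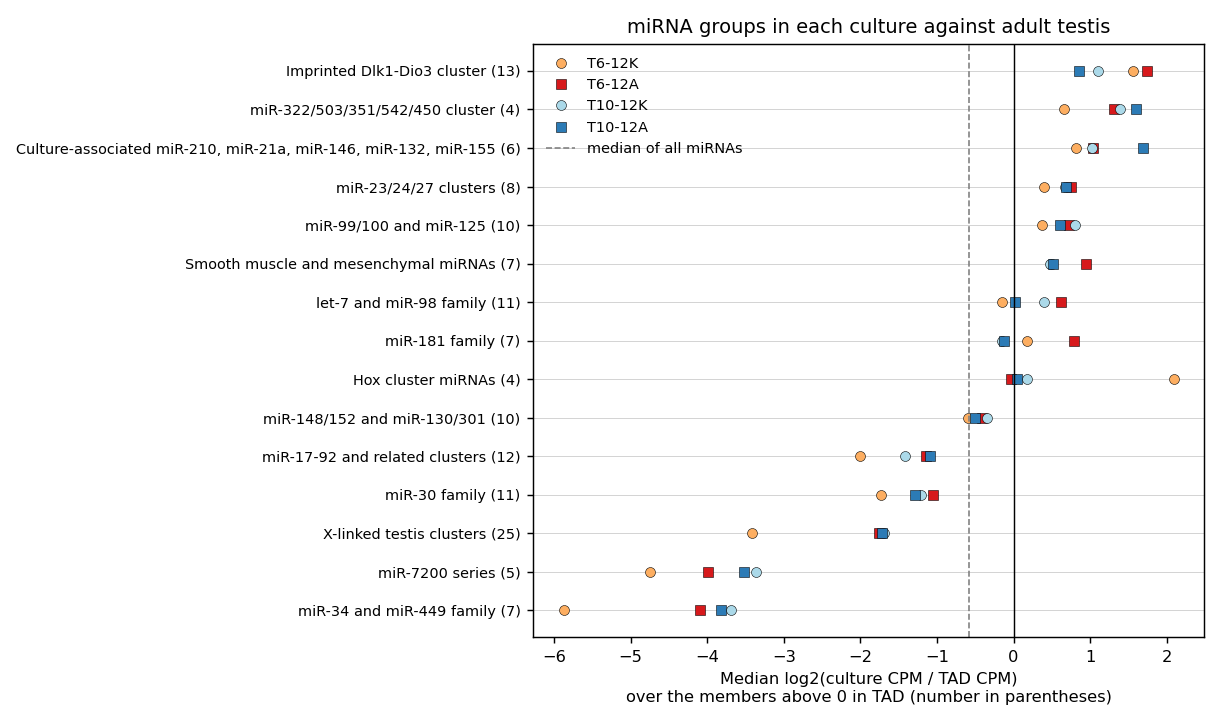
Median log2 ratio of culture to TAD over the members above 0 in TAD (number in parentheses) of each miRNA group with at least 4 such members, with 1 symbol per culture, a solid line at equality and a dashed line at -0.58, the median of all miRNAs above 0 in TAD. The miR-34 and miR-449 family, the miR-7200 series and the X-linked testis clusters lie farthest to the left, with T6-12K leftmost in each, and the Dlk1-Dio3 and miR-322 to miR-450 clusters lie to the right.

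The counts of the remaining groups stand beside 22.7% lower, 7.55% higher and 18.7% within 2-fold among all miRNAs in CPM. Of the 10 miRNAs of the miR-99, miR-100 and miR-125 families, 6 were within 2-fold and 1, miR-99b-5p, was higher, with a median log2 ratio of 0.64 that became 1.14 to 1.39 under the other scalings, where 4 were higher. Among 10 smooth muscle and mesenchymal miRNAs 4 were within 2-fold and none was lower or higher in CPM, with a median of 0.51, whereas 3 or 4 were higher under the other scalings, with medians of 1.06 to 1.30. The 4 within 2-fold include miR-199a-3p and miR-199b-3p, which have the same mature sequence. The 8 listed miRNAs of the miR-23, miR-24 and miR-27 clusters gave 4 within 2-fold and 1 higher in CPM, with a median of 0.67, but 4 higher and 0 to 2 within under the other scalings, with medians of 1.10 to 1.29. Of the 7 of the miR-181 family, 4 were within 2-fold in CPM and 1 to 3 otherwise, the median passing from 0.20 to between 0.73 and 0.97. In the families of miR-148 with miR-152 and of miR-130 with miR-301, 2 of 11 were lower, 1 higher and 3 within 2-fold, and the median, -0.50 in CPM, turned to 0.14 with TMM and 0.10 in the values as deposited. For the miR-29 family, with a median of -1.53, both listed members were below the adult in all cultures without passing the limit in each, as miR-29a-3p with 43.7, 86.1, 138 and 222 CPM against 386 CPM, from 18.8 and 25.6 CPM in T6 and T10. The 3 listed miR-221 and miR-222 strands had a median of 1.39 and gave 1 higher, miR-221-5p, which rested on 5 reads in TAD, and 2 higher under the other scalings.

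The Hox cluster miRNAs set T6-12K apart. miR-10a-5p had 28387 CPM in T6-12K but 4137, 5818 and 4745 CPM in the other cultures and 7185 CPM in TAD, and miR-196b-5p had 125 CPM there against 7.04, 19.2 and 15.1 CPM and 27.01 CPM in TAD. In CPM only 5 miRNAs were at least 2-fold higher than the adult in some cultures and at least 2-fold lower in others, and all 5 were higher in T6-12K alone. These were miR-196b-5p, miR-486a-5p, miR-486b-5p, miR-486a-3p and miR-141-3p, the last an epithelial miRNA with 125.6 CPM in T6-12K, at most 4.38 CPM in the other cultures and 15.3 CPM in TAD. By contrast, miR-196a-5p was higher in all 4 cultures, with 67.2, 93.9, 61.8 and 47.3 CPM against 11.7 CPM. The 4 cultures, in their usual order, had 39.9%, 32.3%, 32.6% and 29.6% of the miRNAs lower than the adult, 15.7%, 18.4%, 16% and 13.6% higher, and 30.5%, 35.3%, 36.6% and 40.8% within 2-fold, so that T10-12A had the largest share within 2-fold and T6-12K the smallest. This order of the shares within 2-fold was the same in all 5 scalings.

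Markers of other cell types were read in the same libraries. The defining erythroid miRNAs miR-451a and miR-144-3p were lower, at 0 in all 4 cultures and at 6 and 5 reads in TAD, so that the erythroid sums given above came almost entirely from the 5p strands of miR-486a and miR-486b, near-identical copies that were listed with 2554, 445, 564 and 762 CPM and with 2571, 442, 559 and 758 CPM, and with 1103 CPM each in TAD. The 2 listed leukocyte markers, miR-142a-5p and miR-150-5p, summed to 5.54 to 10.2 CPM in the cultures and 45.4 CPM in TAD, and both were lower, miR-150-5p being at 0 in 3 of the 4 cultures. The endothelial miR-126a strands summed to 123.5 to 249 CPM in the cultures and 405 CPM in TAD. The neural miR-9-5p had 24.5, 42.9, 26.7 and 36.8 CPM against 225 CPM, and the 2 listed pluripotency miRNAs, miR-295-3p and miR-293-5p, summed to 6.24 to 8.99 CPM against 39.9 CPM. The 5 listed epithelial markers summed to 266 to 401 CPM against 254 CPM, and the only listed muscle marker, miR-133a-3p, had 25.9, 8.62, 6.08 and 2.60 CPM against 28.2 CPM. The liver marker miR-122 was not among the listed miRNAs. The part of these cell types in the differences from the adult was not tested.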

How the data were processed

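Small RNAs of CD1 mouse testes were sequenced by the authors in 7 libraries, of which 5 are compared here. According to the methods, adaptors were trimmed, quality was checked with FastQC, and reads were mapped with Bowtie, first to mm10 and afterwards to the databases of miRNAs (miRBase 21), piRNAs and other non-coding RNAs. A minimum of 50 reads per miRNA was applied. The processing notes of the submitters also name HTSeq and DESeq. The authors deposited a signal per mature miRNA and library, that is, reads scaled by a single factor in each library. How these factors were set and how reads fitting several miRNAs were counted are not given in the sources used here. The per-library tables hold the same values as the table of the series, and 0 columns were left without a sample.

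From the values below 10000 reads, the worth of 1 read was found in each library as the number of which they are whole multiples (tolerance 0.01 reads), and 100% of them came out whole. CPM does not depend on it. No test was run, since each condition had 1 library. Intervals are 95% intervals of counting error on the log scale. The procedure was tested on simulated data. The named miRNAs have a mean of at least 100 CPM and are the 12 with the largest gap between TAD and the nearest culture among the lower and among the higher, and the 12 most abundant within 2-fold; added to these were 9 miRNAs that the study names and up to 4 miRNAs of each of 26 lists. Single examples beyond this rule, such as miR-184-3p, miR-468-5p, miR-423-3p, miR-34a-5p, miR-300-3p, miR-379-5p, let-7e-5p and the members of seed families, were chosen after their values were seen. The members and lists were chosen with earlier results of these data known. TMM trimmed 30% of M and 5% of A. Other alternatives were folds of 1.5 and 4, pseudocounts of 1 and 10 CPM, a minimum mean of 100 CPM and leaving out each culture. Positions and overlapping genes come from RefSeq and GENCODE mouse release 21 on GRCm38. Tables were handled with pandas 2.3.3 and numpy 2.4.6 under Python 3.11.15, intervals with scipy 1.17.1 and figures with matplotlib 3.10.9. The piRNAs, read lengths, cytology and RT-qPCR were left out.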

Additional observations from a re-analysis of the deposited data

Results flagged for a closer look

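For 2 of the most abundant miRNAs within 2-fold of the adult, both KSR cultures lay below TAD and both AlbuMAX I cultures above it in CPM. The log2 ratios of miR-26a-5p to TAD were -0.36 in T6-12K and -0.21 in T10-12K, against 0.42 in T6-12A and 0.20 in T10-12A, a difference of the means of 0.59. Those of miR-101a-3p were -0.88 and -0.18 against 0.42 and 0.70, a difference of 1.09. The opposite signs belonged to CPM only. Under the other 4 scalings both KSR cultures lay above TAD for miR-26a-5p, at 0.15 to 0.68, and for miR-101a-3p T10-12K lay above it, at 0.18 to 0.40, and T6-12K between -0.06 and 0.15. The AlbuMAX I cultures had the higher mean in all 5 scalings, by 0.31 to 0.59 for miR-26a-5p and by 0.82 to 1.09 for miR-101a-3p. With 1 library per condition the differences were not tested.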

How the results depend on the processing

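The 75 lower, 25 higher and 62 within 2-fold miRNAs changed with the setting. With TMM library sizes 47 were lower and 58 higher, and in the values as deposited 47 and 56. Median-of-ratios factors gave 52 higher, and CPM without the 2 most abundant miRNAs 53. A fold of 1.5 gave 45 higher and 19 within, a fold of 4 gave 28 lower, 7 higher and 157 within, and any difference gave 138 lower and 84 higher. A mean of at least 100 CPM left 27 lower, 5 higher and 37 within. A pseudocount of 1 CPM gave 56 higher, and one of 10 CPM 12 higher and 155 within. When the whole 95% counting interval had to lie past the limit, 7 were higher and 34 within. Leaving out each culture in turn gave 77 to 88 lower, 25 to 33 higher and 67 to 83 within. Of the 62 within 2-fold in CPM, 35, 19, 18 and 29 were also within it with median-of-ratios factors, TMM, the values as deposited and CPM without the 2 most abundant miRNAs. For the 29 named lower or higher miRNAs, all 290 values under the other settings kept their direction. For the higher ones the other scalings could only raise the ratio to TAD. Of the 25 higher miRNAs, 21 rest on at most 100 reads in TAD. No paired analysis was possible because each condition had 1 library and the labels carry no replicate numbers.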
